A study of Mus musculus with 12 samples.

Results

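Slc4a9, Trpm4, S100g, Pde6c, Tff3, Cd63 and Amy2b are 7 of the 17714 genes measured in the livers of mice without Lcorl. They were chosen by their measured difference in these data, each being higher in Lcorl knockout (KO) livers than in wild-type (WT) livers. Their difference between genotypes is therefore a description and carries no test. The animals were female mice aged 3 weeks, taken at weaning around 10 am, 6 with a global Lcorl knockout and 6 wild type, each with its own animal number. The sources used here name no strain, no deleted exon and no number of knockout lines. Total RNA was sequenced. Reads assigned to the 17714 genes, recovered from the normalized counts, numbered 27692285 to 31296485 per KO library and 21769795 to 28655120 per WT library. The number of reads sequenced is not given. Lcorl itself, a gene related to the ligand dependent corepressor, held 3 reads over the 6 KO livers and 1594 over the 6 WT livers. Of 10 hepatocyte markers, 9 were in the table, and they summed to between 3057903 and 3895704 normalized counts in KO livers and between 3433436 and 3805194 in WT livers.

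The 7 genes belong to no single pathway. Slc4a9 encodes an anion exchanger of the bicarbonate transporter family, best known from kidney and salivary gland, and Trpm4 encodes a channel that opens on a rise in cytosolic calcium and passes monovalent cations. S100g encodes calbindin-D9k, a small calcium buffer of absorptive epithelia that vitamin D induces in intestine. Pde6c encodes the catalytic subunit of the cone photoreceptor phosphodiesterase, which breaks down cyclic GMP. Tff3 encodes a trefoil peptide that goblet cells secrete with mucins, Cd63 a tetraspanin of late endosomes, lysosomes and exosomes, and Amy2b an amylase of pancreatic type. In bulk tissue, more RNA per cell and more cells of an expressing type cannot be told apart.

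Values are normalized counts, which are reads divided by 1 factor per library. Per kilobase of merged exons, the mean level in KO livers was highest for Tff3, at 3968 normalized counts per kilobase. S100g followed at 538, Pde6c at 451, Cd63 at 263, Amy2b at 55.9, Trpm4 at 23.6 and Slc4a9 at 18.5. The order in WT livers was Tff3 at 673 normalized counts per kilobase, Pde6c at 124, Cd63 at 121, S100g at 46.5, Amy2b at 11.8, Trpm4 at 6.89 and Slc4a9 at 3.78. The place of S100g in KO livers rested on KO 2: without that liver its level was 277 normalized counts per kilobase, below Pde6c at 492 and close to Cd63 at 261. Merged exons join all annotated transcripts, so the level of a gene with long unused exons, as Cd63 may have, is understated. By mean ± SD over 6 livers, the neighbours S100g and Pde6c, Pde6c and Cd63, and Trpm4 and Slc4a9 in the KO order were not apart, nor were Pde6c and Cd63, or Amy2b and Trpm4, in the WT order.

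The start regions of 3 of the 7 genes were in the RefSeq table used here, on GRCm38.p6, and all 3 are shown. Among them are the gene with the widest spread between KO livers (S100g), the one with the narrowest (Cd63) and one with near copies in the genome (Amy2b). Each line gives the 250 bases before the annotated start, from 5′ to 3′ on the strand of the gene. S100g lies at chrX:162964600-162964849 on the minus strand, Cd63 at chr10:128909095-128909344 on the plus strand and Amy2b at chr3:113156728-113156977 on the minus strand. The RefSeq start of Cd63 lies inside the longer gene body that GENCODE M21 draws, whose coordinates are used below. Capitals mark matches to TATAAA in Amy2b and to AGGTCA, in either orientation, in S100g.
S100g: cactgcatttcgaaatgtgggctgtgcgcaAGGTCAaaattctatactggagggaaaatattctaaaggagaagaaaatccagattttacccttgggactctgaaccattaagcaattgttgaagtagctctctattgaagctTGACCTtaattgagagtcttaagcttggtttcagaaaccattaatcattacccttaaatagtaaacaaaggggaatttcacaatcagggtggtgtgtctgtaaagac
Cd63: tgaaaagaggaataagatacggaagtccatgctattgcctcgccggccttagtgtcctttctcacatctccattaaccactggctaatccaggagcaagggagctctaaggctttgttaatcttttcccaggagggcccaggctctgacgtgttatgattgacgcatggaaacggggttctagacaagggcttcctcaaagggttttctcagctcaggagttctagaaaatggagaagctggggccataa
Amy2b: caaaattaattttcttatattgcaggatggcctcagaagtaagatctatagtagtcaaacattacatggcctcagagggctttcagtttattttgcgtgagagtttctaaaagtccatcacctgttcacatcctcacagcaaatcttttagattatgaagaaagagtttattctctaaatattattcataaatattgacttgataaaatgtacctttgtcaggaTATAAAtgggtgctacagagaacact
Both strands were searched for TATAAA (the TATA box), for CCAAT (the CAAT box), for AGGTCA (a core motif of nuclear receptors), for CACGTG (an E-box) and for GGGCGG (a GC box), and the matches found do not overlap. The S100g window held AGGTCA on the gene strand, starting 220 bases before the annotated start, and its complement starting 107 bases before it. AGGTCA was in 14% of all 32851 windows of this length. The Amy2b window held TATAAA starting 26 bases before the start, as did 12.4% of windows anywhere in the 250 bases. The Cd63 window held no match to the 5 motifs. The share of G and C was 38.4% for S100g, 48.8% for Cd63 and 33.2% for Amy2b. A match is a string of letters and does not show that a factor binds there.

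Both ion transport genes had every KO liver above every WT liver. For Slc4a9, on chromosome 18 from 36528147 to 36556273, KO livers had a lowest value of 45.7, a median of 101 and a highest value of 246 normalized counts, against 16.6, 22.5 and 38.9 in WT livers. The highest KO liver was KO 4 and the lowest KO 6, which still lay 1.17 times above the highest WT liver, WT 2. The log2 difference was 2.11 (SE 0.332), or 4.31-fold, on the scale of log2(normalized count + 1). These levels are low: the gene held 746 reads over the 6 KO libraries and 142 over the 6 WT libraries. For Trpm4, on chromosome 7 from 45302632 to 45333780, KO livers had a lowest value of 186, a median of 239 and a highest value of 348 normalized counts, against 52.7, 69.9 and 96.3 in WT livers. KO 2 and KO 4 were highest, and KO 5 and KO 6 lowest. The lowest KO liver was 1.94 times the highest WT liver, the widest such gap among the 7 genes. The log2 difference was 1.75 (SE 0.200), or 3.36-fold.

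S100g had the most uneven values of the 7 genes. On the X chromosome from 162961992 to 162964599, inside the body of Ctps2 on the opposite strand, it measured 146, 885, 216, 227, 33.9 and 42.0 normalized counts in KO 1 to KO 6, against 11.8, 39.8, 28.3, 20.4, 17.6 and 16.2 in WT 1 to WT 6. The genotypes overlapped: KO 5 lay below WT 2, while the other 5 KO livers lay above every WT liver. The log2 difference was 2.75 (SE 0.654), or 6.73-fold, in limma, and 3.51 in edgeR and 3.53 in DESeq2 on the recovered reads. The highest KO liver was 26.1 times the lowest, where the same ratio was 3.39 among WT livers. The log2 difference was the largest of the 7 with all livers, but not without KO 2, where it was 2.23, or 4.69-fold, against 2.38 for Tff3 and 2.29 for Amy2b. The mean of the other 5 KO livers was 133 ± 92.2 normalized counts (SD, n = 5), against 258 ± 318 over all 6 KO livers and 22.3 ± 10.2 over 6 WT livers (SD, n = 6 each).

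KO 2 also stood apart in some, but not all, markers of duct and pancreas, and in some other genes. Krt19, a keratin of duct epithelium, measured 301 normalized counts in KO 2 and at most 83.9 in the other 11 livers. Muc1, a mucin of duct surfaces, measured 208 in KO 2 and at most 61.1 elsewhere. Reg1, a secreted pancreatic protein gene, measured 126 in KO 2 and 0 in the other 11 livers, and the chymotrypsinogen gene Ctrb1 26.7 in KO 2 and at most 0.963 elsewhere. Cela2a, an elastase gene, measured 188 in KO 2 and 32.7 to 80.6 elsewhere. Others of the same lists were not raised: the elastase gene Cela1 measured 128 in KO 2, below each of the other 11 livers, while the duct markers Prom1, at 136, and Pkhd1, at 154, lay inside the range of the others. KO 2 was the highest of the 12 livers for 6 of 14 cholangiocyte markers and 3 of the 8 pancreatic acinar markers in the table. Over the whole lists, the 14 cholangiocyte markers summed to 5408 to 9307 normalized counts in KO livers, with KO 2 highest, and to 5088 to 6790 in WT livers. The 8 pancreatic acinar markers in the table, of 26 listed, summed to 238 to 513 in KO livers, with KO 2 highest, and to 447 to 743 in WT livers. Cela1, at 130 to 503 in the other 11 livers, weighs heavily in these sums, so they do not follow Reg1 or Ctrb1. KO 2 was the lowest of the 12 livers for 2 of these 8 markers. Slc26a3, of the anion transporter list, measured 86.1 in KO 2 and at most 2.86 in the other 11 livers. Fcgbp measured 44.5 in KO 2 and at most 28.3 elsewhere. The intestinal epithelium markers summed to 1971 in KO 2, inside the KO range of 1686 to 2627. The part of duct, pancreatic, intestinal or other tissue in the S100g value of KO 2 was not tested. The values of the other KO livers are those given above. Among the other 6 genes, KO 2 was the highest KO liver for Trpm4 alone.

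**Figure D1:**
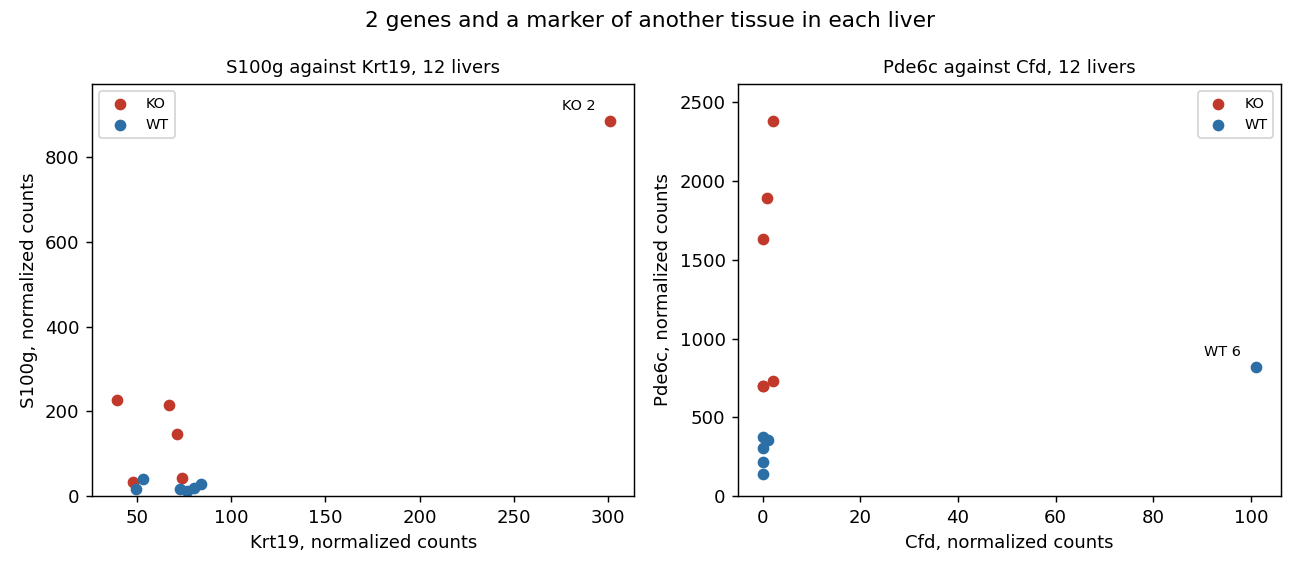
Normalized counts in each of the 12 livers, with S100g against Krt19 on the left and Pde6c against Cfd on the right, KO in red and WT in blue, on linear axes. KO 2 stands alone at 301 for Krt19 and 885 for S100g, and WT 6 stands alone at 101 for Cfd with 819 for Pde6c, inside the KO range of 698 to 2381.

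Pde6c fell into separate levels among KO livers. On chromosome 19 from 38132781 to 38183958, it measured 2381, 734, 701, 698, 1896 and 1633 normalized counts in KO 1 to KO 6, against 215, 359, 304, 139, 378 and 819 in WT 1 to WT 6. KO 2, KO 3 and KO 4 lay close together and below WT 6, so that the genotypes overlapped, while KO 1, KO 5 and KO 6 lay above every WT liver. The log2 difference was 1.89 (SE 0.422), or 3.70-fold. Genes of fat cells stood out in WT 6: Adipoq measured 53.4 normalized counts there and 0.975 or less elsewhere, Cfd 101 there and 2.07 or less elsewhere, and Plin1 30.5 there and 1.04 or less elsewhere. The 9 adipocyte markers together summed to 426 to 1389 normalized counts in KO livers and 507 to 787 in WT livers, with WT 6 the highest WT liver. Without WT 6 all 6 KO livers lay above the remaining 5 WT livers, whose highest value was 378, and the log2 difference was 2.16, or 4.47-fold. The part of fat tissue in the Pde6c value of WT 6 was not tested.

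The 3 genes of secreted and vesicle proteins had no overlap between genotypes. For Tff3, on chromosome 17 from 31125306 to 31129646, KO livers had a lowest value of 732, a median of 2006 and a highest value of 3516 normalized counts, against 176, 358 and 447 in WT livers. KO 5 and KO 6 lay at 732 and 785, well apart from the other 4 KO livers, whose lowest value was 1819 in KO 2. The log2 difference of Tff3 was 2.41 (SE 0.386), or 5.30-fold. For Cd63, on chromosome 10 from 128900989 to 128912822, KO livers had a lowest value of 822, a median of 974 and a highest value of 1126 normalized counts, against 344, 471 and 509 in WT livers. It had the smallest log2 difference of the 7, 1.13 (SE 0.111), or 2.18-fold, and the smallest spread, an SD of 0.154 in KO and 0.244 in WT on the log2 scale. The corresponding SD of S100g was 1.73 in KO and 0.595 in WT.

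Amy2b, on chromosome 3 from 113147656 to 113156727, had a lowest value of 51.1, a median of 81.3 and a highest value of 148 normalized counts in KO livers, against 8.78, 17.2 and 30.1 in WT livers. KO 5 was highest and KO 6 lowest among KO livers, and the log2 difference was 2.24 (SE 0.332), or 4.73-fold. RefSeq lists the gene as protein coding and GENCODE M21 as an unprocessed pseudogene. Of its 50-base stretches, 40.2% occur in transcripts of other genes, most of them in the pancreatic amylase genes Amy2a2 to Amy2a5 (39.1% each), while 3.34% occur in Amy1. Reads from such copies can be assigned to either gene, so the level is uncertain. Amy1, the amylase of salivary gland and liver, was the only gene of the amylase list in the table. Amy1 measured 9637 to 13218 normalized counts in KO livers and 8745 to 11086 in WT livers, and did not pass the threshold (log2 difference 0.14, SE 0.082, limma adjusted p = 0.340). Amy2b amounted to 0.779 ± 0.231% of the Amy1 value in KO livers and 0.181 ± 0.0802% in WT livers (SD, n = 6 each), with ranges of 0.485 to 1.12% in KO and 0.0929 to 0.272% in WT. Cd63 shared 11.1% of its 50-base stretches with other genes, 9.70% with the pseudogene Cd63-ps, and Trpm4 shared 0.145%. Slc4a9, S100g, Pde6c and Tff3 shared 0%.

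**Figure D2:**
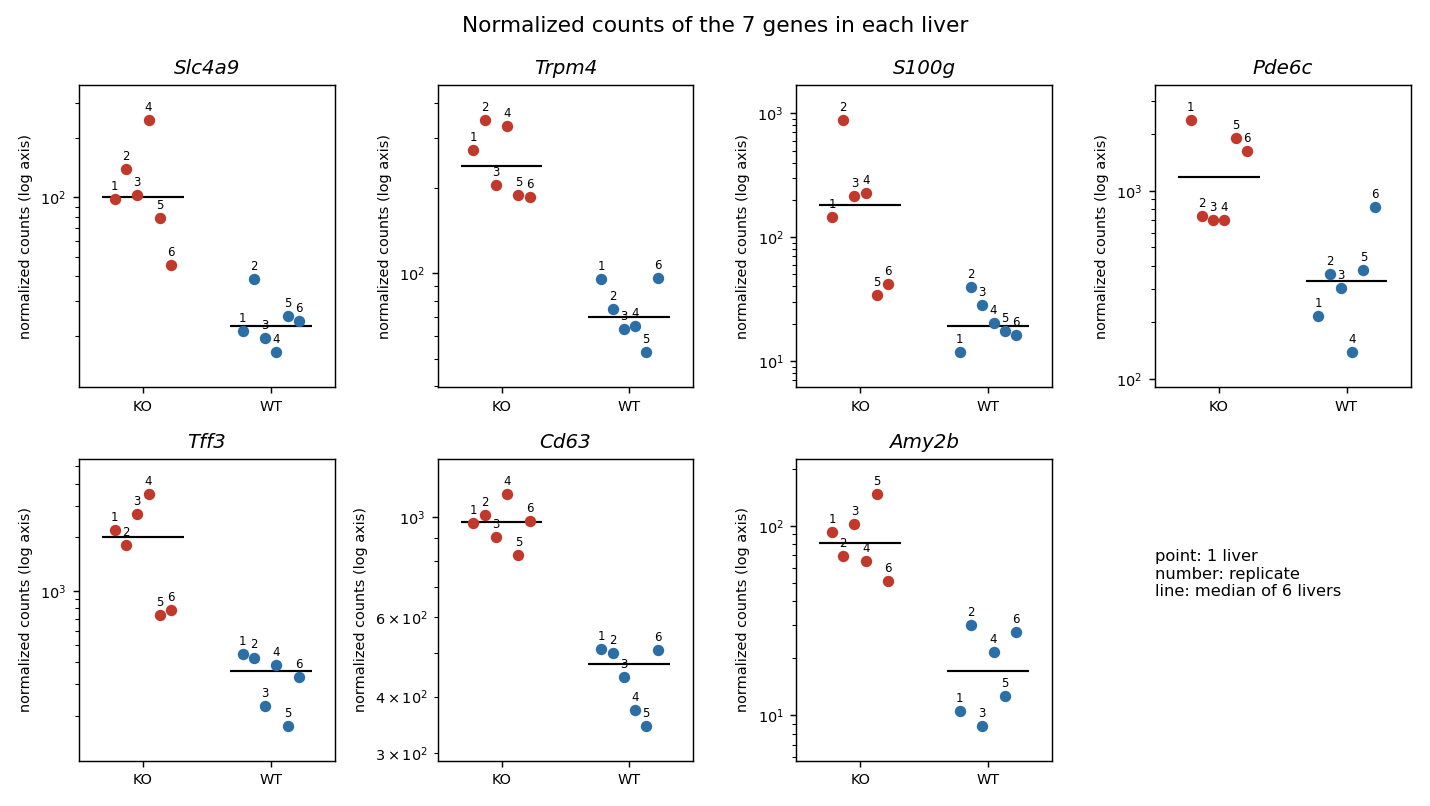
Normalized counts of the 7 genes on log axes, 1 panel per gene, with each of the 6 KO livers in red and each of the 6 WT livers in blue, numbered by replicate, and lines at the medians. KO and WT points are apart in 5 panels and overlap for S100g, where KO 5 is at 33.9, and for Pde6c, where WT 6 is at 819.

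All 7 genes passed an adjusted p of 0.05 in limma, as did 1.75% of the 13569 tested genes in this direction, and 5 of the 7 had every KO liver above every WT liver, as did 1.30% of tested genes (2.96% of tested genes had no overlap in either direction). Since the genes were picked for being higher, nothing is read from these shares. The median log2 difference over all tested genes was 0.008. In the authors' deposited table the log2 fold changes ran from 1.09 for Cd63 to 3.22 for S100g.

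Animal numbers fall into 4 runs of neighbouring numbers, a grouping that the labels do not explain. KO 1 and WT 1 form the first, KO 2, KO 3, KO 4 and WT 4 the third, and KO 5, KO 6, WT 5 and WT 6 the fourth, while WT 2 and WT 3 form a run with no KO liver. Several genes moved with these runs. Pde6c was lowest in the third run in both genotypes, at 698 to 734 normalized counts in its 3 KO livers and 139 in its WT liver. For WT livers this rests on the limit chosen. A higher limit would add WT 2 and WT 3, at 359 and 304, to the third run, above WT 1 at 215. In the fourth run Pde6c measured 1633 to 1896 in 2 KO livers and 378 to 819 in 2 WT livers. Slc4a9, Trpm4, S100g and Tff3 were all lowest among KO livers in the 2 KO livers of the fourth run. Within each of the 3 runs that hold both genotypes, KO values lay above WT values for all 7 genes, which restates how the genes were chosen. The first run has 1 liver of each genotype and the third has 1 WT liver. For S100g, the fourth run had 33.9 and 42.0 normalized counts in KO livers and 16.2 and 17.6 in WT livers. The within-run log2 difference ran from 0.93 for Cd63 in the first run to 4.04 for S100g in the third. With the runs as a block, the log2 differences were 2.08 for Slc4a9, 1.66 for Trpm4, 2.63 for S100g, 2.29 for Pde6c, 2.16 for Tff3, 1.17 for Cd63 and 2.23 for Amy2b.

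The way the genes varied among livers of 1 genotype was not used to choose them. Across the 6 KO livers, Slc4a9, Trpm4, S100g, Tff3 and Cd63 varied in the same direction: all 10 pairs among these 5, a grouping seen after the values, had a positive Pearson's r, from 0.53 to 0.83. Pde6c had a negative r with each of the 5, from −0.70 to −0.45. The signs of the 5 genes with each other and with Pde6c were kept when any 1 KO liver was left out, but not their size. The lowest r among the 5 was 0.13 without KO 4 and 0.19 without KO 5, and the weakest r with Pde6c was −0.20 without KO 4. Amy2b had a negative r with each of the 5, from −0.79 with Cd63 to −0.03 with Slc4a9. Those signs rested on single livers: 4 of the 5 were negative without KO 2, 3 without KO 4 and 1 without KO 5. KO 4 was among the 2 highest KO livers for 5 of the 7 genes, and KO 5 and KO 6 were each the lowest for 3.

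No single pair passed after adjustment over the 42 relations computed, 21 within each genotype (smallest adjusted p = 0.423 for r and 0.350 for rho). The exact two-sided permutation test over 6 livers cannot give a p under 0.00139 for r or under 0.00278 for rho. For a single pair the second adjusts to 0.117, and the first also stays above 0.05 over 42 relations, so that no pair could have passed alone. Unadjusted, 3 KO pairs and 1 WT pair had p under 0.05 for r, and the same numbers for Spearman's rho. In KO livers, Slc4a9 and Trpm4 had r = 0.82 (exact permutation p = 0.0222) and rho = 0.89 (exact permutation p = 0.0333). Without the 2 livers farthest from the median of Slc4a9, their r was 0.87 over 4 livers. Trpm4 and S100g had r = 0.83 (exact permutation p = 0.0389) and rho = 0.89 (exact permutation p = 0.0333), and r = 0.62 without the 2 farthest livers. Slc4a9 and Tff3 had r = 0.82 (exact permutation p = 0.0403) and rho = 0.77 (exact permutation p = 0.103), and r = 0.58 without the 2 farthest livers. Each of the 3 pairs had an adjusted p of 0.423 for r. The runs of animal numbers hold at most 3 KO livers, too few for a value within a run, so run and co-variation cannot be told apart.

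WT livers showed another set of values. Of the 21 pairs, 18 had a positive r in WT livers, against 11 in KO livers, and 11 pairs had opposite signs in the 2 genotypes. Trpm4 and Cd63 had the highest r in WT, 0.88 (exact permutation p = 0.0250, adjusted p = 0.423), with rho = 0.89 (exact permutation p = 0.0333) and r = 0.87 without the 2 farthest livers, and had r = 0.76 in KO livers. Trpm4 and S100g, with r = 0.83 in KO livers, had r = −0.36 in WT livers. Whether any r differs between the genotypes was not tested. The WT count of positive pairs rested on WT 2: without it 12 of 21 were positive.

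**Figure D3:**
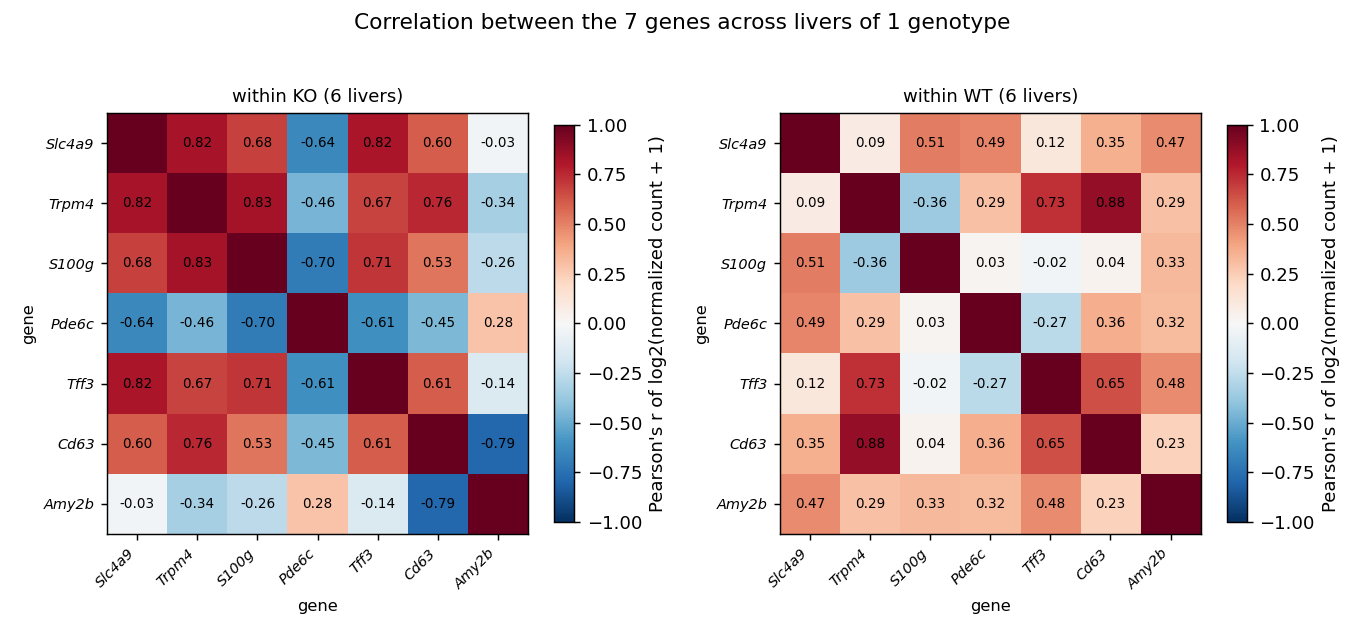
Pearson's r between each pair of the 7 genes on log2(normalized count + 1), across 6 KO livers on the left and 6 WT livers on the right, from blue at −1 to red at 1. In KO livers the block of Slc4a9, Trpm4, S100g, Tff3 and Cd63 is red throughout and the Pde6c row is blue against it, while in WT livers 18 of 21 pairs are positive.

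The genes whose variation within genotypes was most like that of each of the 7 were sought among 11091 genes with a mean of at least 50 normalized counts, by r of the deviations from the genotype means over the 12 livers. Fam13b was nearest to Slc4a9 (r = 0.91), Rom1 to Trpm4 (r = 0.94), Pxylp1 to S100g (r = 0.93), Rab43 to Pde6c (r = 0.93), Hnrnpu to Tff3 (r = 0.91), Wwc2 to Cd63 (r = 0.91) and Adck2 to Amy2b (r = 0.86). Taking the 3 nearest genes of each, 1 of 21 passed the threshold between genotypes, where 4.43% of all tested genes did. That gene was Mllt6 (r = 0.90 with Trpm4), which measured 1095 normalized counts in KO livers and 884 in WT livers on average (log2 difference 0.31, limma adjusted p = 0.0456). Rom1, a tetraspanin of photoreceptors, measured 76.0 in KO livers and 66.9 in WT livers (adjusted p = 0.484, limma). Such r values are the highest of many and describe these 12 livers. For S100g the likeness was larger in KO livers: Pxylp1 had r = 0.99 with it within KO and r = 0.38 within WT. S100g was 885 in KO 2 and at most 227 in the other KO livers. The r without KO 2 was not computed, so the KO value may rest on that liver.

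The share of relatives called between genotypes was set beside that of all genes. Of 243 listed genes of the same families and pathways, 210 were in the table, 156 were tested, 2 rose, 2 fell and 152 did not pass at a limma adjusted p of 0.05, or 2.56% called against 4.43% of all tested genes (1.75% higher and 2.68% lower in KO). The median log2 difference over the 156 was 0.03, close to that of all genes. Unadjusted, 32 of the 156 had p under 0.05, where 23.4% of all tested genes did, and edgeR called 4 (2.56%, against 4.10% of all genes) and DESeq2 15 (9.62%, against 9.94% of all genes). Leaving out 1 liver moved the number called. It was 1 without KO 1, KO 4, WT 3, WT 4 or WT 5 (0.641%, against 1.65% to 2.51% of all genes). It was 2 without WT 2 (1.28%, against 2.24%). Without KO 2 it was 7 (4.49%, against 3.31% of all genes), so the share was then above that of all genes. Without KO 6 it was also 7 (4.49%, against 6.70%). Without WT 6 it was 11 (7.05%, against 6.87% of all genes).

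Among transporters and channels no relative passed. Of 13 tested SLC4 and SLC26 anion transporters, 6 were higher and 7 lower in KO, 2 had an unadjusted p under 0.05, and edgeR and DESeq2 called 0. Slc4a4, the sodium bicarbonate cotransporter gene, measured 2112 ± 262 normalized counts in KO livers and 1627 ± 366 in WT livers (SD, n = 6 each; limma adjusted p = 0.0992). Slc4a2, an anion exchanger gene of the bile canaliculus, measured 1246 ± 62.3 in KO and 1243 ± 109 in WT (limma adjusted p = 0.969). Of 12 tested TRP channels, 8 were higher and 4 lower in KO. For these limma called 0, with 3 at an unadjusted p under 0.05, edgeR called 0 and DESeq2 1. Trpm6 measured 187 ± 162 in KO, with KO 2 at 512, and 77.2 ± 14.7 in WT (limma adjusted p = 0.113). Mcoln2 measured 25.3 ± 9.89 in KO and 12.9 ± 5.06 in WT (limma adjusted p = 0.0963). Trpm7 measured 1474 ± 114 in KO and 1383 ± 125 in WT (limma adjusted p = 0.479), and Trpm5, the closest relative of Trpm4, had a mean of 3.43 in KO and 0.639 in WT, below the minimum for testing. KO 2 alone measured 15.8 for Trpm5, and the mean of the other 5 KO livers was 0.947. Of the TRPM4 partner list, which holds sulfonylurea receptors, their channels and calmodulins, limma called 0 of 5, with 1 at an unadjusted p under 0.05, and edgeR and DESeq2 called 0.

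Among calcium genes, S100a10 went the other way. S100a10, the annexin A2 partner of the S100 family, fell to 316 ± 59.9 normalized counts in KO livers, against 645 ± 130 in WT livers (SD, n = 6 each; log2 difference −1.03, SE 0.143, limma adjusted p = 0.00246), and all 6 KO livers lay below all 6 WT livers. The other 8 tested S100 genes did not pass. Of the vitamin D and calbindin list, Cyp2r1, a vitamin D 25-hydroxylase gene, fell to 243 ± 91.3 in KO livers, against 419 ± 37.5 in WT livers (log2 difference −0.85, SE 0.189, limma adjusted p = 0.0273), and 4 tested genes did not pass. The Cyp2r1 call was lost without KO 1, KO 4, WT 2, WT 3, WT 4 or WT 5 and with the block (adjusted p up to 0.0884). Vdr, the vitamin D receptor gene, had a mean of 3.85 in KO and 3.36 in WT, and Calb1, the larger calbindin, 0.317 in KO and 0.162 in WT, both below the minimum. Of 21 tested genes of calcium pumps, stores and entry, 11 were higher and 10 lower and limma called 0, with 7 at an unadjusted p under 0.05, edgeR 0 and DESeq2 2.

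Among phosphodiesterases, Pde1b, which calcium and calmodulin activate, rose to 118 ± 25.9 normalized counts in KO livers, against 72.9 ± 15 in WT livers (SD, n = 6 each; log2 difference 0.69, SE 0.160, limma adjusted p = 0.0321), with no overlap between genotypes. Its call was lost without KO 1, KO 4, WT 1, WT 3, WT 4 or WT 5 and with the block (adjusted p up to 0.122). The other 17 tested did not pass. Among partners of Pde6c in photoreceptors, the inhibitory subunit gene of cones, Pde6h, had a mean of 0.495 normalized counts in KO and 0.163 in WT, and that of rods, Pde6g, 16.3 in KO and 16.4 in WT. Other photoreceptor genes were not all low. The rod transducin gene Gnat1 measured 375 ± 134 in KO and 265 ± 129 in WT (SD, n = 6 each; limma adjusted p = 0.333), and the arrestin gene Sag 22.6 ± 12.5 in KO and 7.20 ± 2.92 in WT (log2 difference 1.42, limma adjusted p = 0.0728), with 5 of 6 KO livers above every WT liver. Of 6 tested phototransduction genes limma called 0, with 1 at an unadjusted p under 0.05, edgeR 0 and DESeq2 1.

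Among secretory and vesicle genes, the other trefoil factors stayed near the floor. Tff1 had a mean of 1.80 normalized counts in KO and 1.81 in WT, and Tff2 4.15 in KO and 1.38 in WT. Of the trefoil and mucus list 3 genes were tested and limma called 0, with 1 at an unadjusted p under 0.05, and edgeR and DESeq2 called 0. Of 25 tested tetraspanins, 13 were higher and 12 lower and limma called 0, with 3 at an unadjusted p under 0.05, edgeR 0 and DESeq2 3. Cd81, a tetraspanin of exosomes, measured 5608 ± 332 in KO and 6280 ± 279 in WT (SD, n = 6 each; limma adjusted p = 0.0985). Of 41 lysosome and exosome genes, 22 were higher and 19 lower, and 1 passed: Ctsl, the cathepsin L gene, rose to 27251 ± 2910 in KO livers, against 21305 ± 1523 in WT livers (log2 difference 0.35, SE 0.085, limma adjusted p = 0.0372). The Ctsl call was lost in 12 of 25 alternatives, among them without KO 1, KO 2, KO 4, KO 5 or any 1 WT liver other than WT 6 (adjusted p up to 0.179). Lamp1, a lysosomal membrane protein gene, measured 15660 ± 386 in KO and 16715 ± 612 in WT (limma adjusted p = 0.305).

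**Figure D4:**
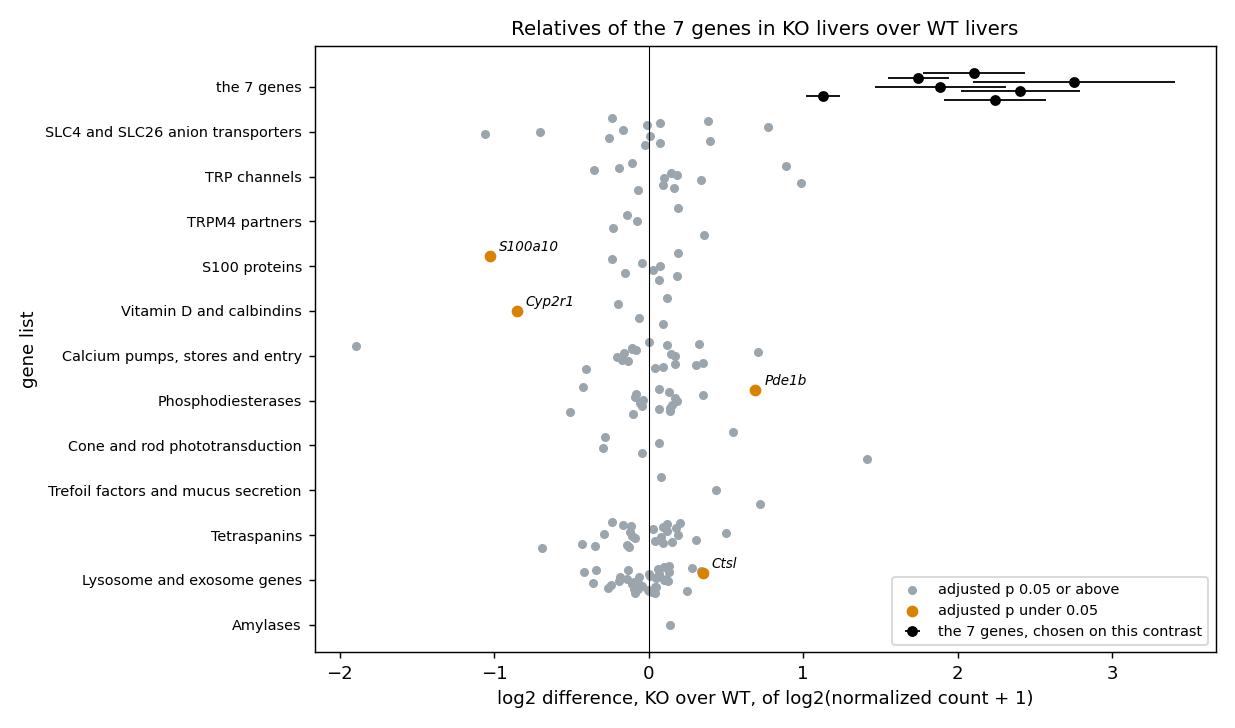
Log2 difference, KO over WT, of log2(normalized count + 1) for the 7 genes with SE bars and for each tested gene of 12 lists of relatives, where genes past an adjusted p of 0.05 are orange and named. The 7 genes lie between 1.13 and 2.75, and the 4 called relatives lie between −1.03 and 0.69.

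Genes next to the 7 were examined by position. Of 62 genes annotated within 100000 bases of 1 of the 7 in GENCODE M21 on GRCm38, 37 were in the table and 24 were tested. Of these 2 rose and 0 fell, or 8.33% called, against 4.43% of all tested genes, with a median log2 difference of 0.11. Rbp4, the retinol carrier gene 7500 bases from Pde6c on the opposite strand, rose to 107077 ± 14135 normalized counts in KO livers, against 77347 ± 8921 in WT livers (SD, n = 6 each; log2 difference 0.47, SE 0.120, limma adjusted p = 0.0461). Itga7, an integrin gene 20996 bases from Cd63, rose to 449 ± 89.9 in KO livers, against 292 ± 64.8 in WT livers (log2 difference 0.62, SE 0.155, limma adjusted p = 0.0413). Both calls were lost with the block and without KO 1, KO 2, KO 4, KO 5, WT 1, WT 2, WT 3 or WT 5. That of Rbp4 was also lost without a filter and without WT 4. The number of neighbours called was 0 without KO 1, KO 4, KO 5, WT 1, WT 2, WT 3 or WT 5. It was 1 without WT 4, which was Itga7, and 1 without KO 2, which was neither Rbp4 nor Itga7. In these leave-out fits 1.65% (without KO 4) to 3.47% (without KO 5) of all tested genes were called. Of the 24, edgeR called 2, where it called 4.10% of all genes, and DESeq2 called 6, where it called 9.94% of all genes. Unadjusted, 10 of the 24 had a limma p under 0.05, where 23.4% of all tested genes did. Rdh5, 771 bases from Cd63, measured 1123 ± 189 in KO and 885 ± 104 in WT (limma adjusted p = 0.0945). Ctps2, around S100g, measured 726 ± 108 in KO and 561 ± 69.8 in WT (limma adjusted p = 0.0753). No annotated exon of another gene overlapped an exon of the 7, and the bodies of 2 genes, Ctps2 and Rpl14-ps1, overlapped one.

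Markers of other cells and tissues that could carry these genes gave the following sums. Kidney tubule markers, of which 3 of 8 were in the table, summed to 2.74 to 7.92 normalized counts in KO livers and 0 to 8.78 in WT livers. Intestinal epithelium markers summed to 1686 to 2627 in KO and 2038 to 3002 in WT, and mast cell and basophil markers to 215 to 354 in KO and 249.2 to 359 in WT. Kupffer cell markers summed to 27515 to 36199 in KO and 21954 to 37019 in WT, and erythroid markers to 682 to 1653 in KO and 812 to 2282 in WT. Of these 5 lists 20 genes were tested, 0 of them kidney tubule markers and 1 a mast cell marker. In limma 0 of the 20 passed, where 4.43% of all tested genes did, edgeR and DESeq2 called 0, and 3 had an unadjusted p under 0.05. Of all tested genes 2.68% were called lower in KO. Of 12 tested cholangiocyte markers 2 fell: Prom1, a membrane glycoprotein gene, to 123 ± 47.2 in KO, against 343 ± 105 in WT (limma adjusted p = 0.00697), and Pkhd1, a cilium gene, to 149 ± 17.1 in KO, against 259 ± 32.1 in WT (limma adjusted p = 0.00181). Of 5 tested pancreatic acinar markers the elastase gene Cela1 fell to 170 ± 36.9 in KO, against 375 ± 95 in WT (SD, n = 6 each; limma adjusted p = 0.00533).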

How the data were processed

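Livers of 6 Lcorl KO and 6 WT female mice were profiled by total RNA sequencing. The deposited signal values are normalized counts per gene, which the authors made by dividing gene counts by 1 factor per library. Per the submitters' processing notes, the tools included STAR, featureCounts, FastQC and DESeq2, with mm10 as the build; no version, strand setting or annotation is named. The authors also deposited a table with log2 fold changes, p-values and adjusted p-values per gene, whose file headers name no further step. Genotypes came from the genotype field of each sample, and the sample titles matched each library to its sample. Nothing states that same-genotype animals come from separate litters, so p-values measure the spread between these livers.

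Genes with a mean of at least 10 normalized counts (13569) were fitted with limma 3.58.1 in R 4.3.3 on log2(normalized count + 1), with a mean trend and Benjamini-Hochberg adjustment, and called at an adjusted p under 0.05. Every value was a whole multiple of 1 step per library (100% within 0.001), and the recovered reads were tested with edgeR 4.0.16 and DESeq2 1.42.0 as alternatives. Scripts were tested on simulated data. Correlations used exact two-sided permutation tests within each genotype. The 7 genes and all lists were chosen with earlier results of these data known. Named are the 7 genes, relatives and neighbours past the threshold, and the 3 genes most alike each. Other genes, such as Slc4a4, Slc4a2, Trpm6, Trpm7, Mcoln2, Cd81, Lamp1, Rdh5, Ctps2, Gnat1 and Sag, were chosen after their values were seen. Lengths, neighbours and shared stretches come from GENCODE M21, and start regions from RefSeq.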

Additional observations from a re-analysis of the deposited data

Results flagged for a closer look

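Of the 14 groups of 6 livers looked at, 1 per gene and genotype, 2 had a sample far from the others, with a gap to its nearest neighbour above Dixon's critical share of the whole range. The gaps were taken on untransformed normalized counts. Chance flags about 1 in 20 such groups where values are normally distributed, which was not tested for these counts. S100g measured 885 normalized counts in KO 2, with a gap of 0.773 of the KO range. Pde6c measured 819 normalized counts in WT 6, with a gap of 0.649 of the WT range. The gaps were not taken on log2(normalized count + 1), so both flags hold for the untransformed scale only. On the log2 scale S100g was 9.79 in KO 2, 7.83 in KO 4, the next, and 5.13 in KO 5, the lowest. Pde6c was 9.68 in WT 6, 8.56 in WT 5, the next, and 7.13 in WT 4, the lowest.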

How the results depend on the processing

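The log2 differences of the 7 genes kept their sign in all 25 alternatives, a direction that their choice favours, and moved by less than the pooled SD within genotypes. S100g ranged most, from 2.16 without WT 6 and KO 2 to 3.53 with DESeq2, against a pooled SD of 1.29. Counts of calls moved more. The number of genes called, 601, was 1349 with DESeq2, 158 with the runs of animal numbers as a block, 913 without WT 6 and KO 2 together, and 224 to 932 when 1 liver was left out (leaving out KO 1 gave 260, KO 4 gave 224, KO 6 gave 909, WT 1 gave 271, WT 2 gave 304, WT 3 gave 237, WT 4 gave 340, WT 5 gave 269 and WT 6 gave 932). The number of relatives called, 4, was 10 with library quality weights (6.41%, against 6.35% of all genes) and 15 with DESeq2 (9.62%, against 9.94%). It was 1 with the block (0.641%, against 1.16%) and 12 without WT 6 and KO 2 together (7.69%, against 6.73%). When 1 liver was left out it was 1 to 11. The number of neighbours called, 2, was 1 without a filter, 6 with DESeq2, 0 with the block, and 0 to 2 when 1 liver was left out. The cause was not tested. No paired analysis was possible because the labels give no shared replicate numbers; the block rests on animal numbers alone. Reads limit Slc4a9, S100g and Amy2b most, with 142, 131 and 108 reads over the 6 WT libraries.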
